A study of Mus musculus with 12 samples.

Results

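The 36 genes described here cover the synthesis of cholesterol and of fatty acids, the proteins that switch that synthesis on and off, and the carriers that move surplus sterol out of the cell. They were taken by symbol from a fixed list, and all 36 were present among the 47643 genes of the deposited table. By role, 18 encode enzymes of sterol synthesis, 5 encode regulators of the SREBP pathway, 1 encodes the sterol transfer protein Stard4, 4 encode enzymes of fatty acid synthesis, 5 encode desaturases and an elongase, and 3 serve sterol export or are targets of the sterol-sensing receptor LXR. RNA had been sequenced in 12 libraries of splenic T cells of C57BL/6 mice, labelled as naive CD4 cells at the start, after 3 days of stimulation by plate-bound anti-CD3 and anti-CD28 (coating at 2 μg/ml each). Wild-type (WT) cells received no cytokine (called Th0), 20 ng/ml IL-6 with 2 ng/ml TGF-β, or 20 ng/ml TNF with 2 ng/ml TGF-β. Cells of Tnfr2-/- mice, which lack TNF receptor 2, received the same TNF+TGF-β. Each of the 4 groups had 3 libraries. The labels do not say whether these came from separate mice, so p-values reflect the spread between samples whose independence is not known and may be technical only. A Th0 group of Tnfr2-/- cells and a group with TGF-β alone were not analysed here, so genotype without cytokine, and TNF or IL-6 without TGF-β, cannot be told apart from the effects given below.

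A cell that divides must make membrane, and activated T cells turn on sterol and fatty acid synthesis for this. SREBP transcription factors drive the genes of both pathways. They are held in the endoplasmic reticulum by Scap and the Insig proteins while sterol is plentiful and are released when sterol falls. For sterol, LXR receptors work in the opposite direction: oxidised sterols activate them, and target genes of theirs export sterol and limit its uptake.

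Values are FPKM, in which fragments are divided by transcript length and by the library's mapped total, so levels can be compared between genes. Differences are of log2(FPKM + 1), so the added 1 makes those of weakly expressed genes look smaller than they are. They were tested with limma over 13082 genes that reached 1 FPKM in at least 3 libraries, and a call means a Benjamini-Hochberg adjusted p under 0.05. All 36 genes passed that filter, so none is left out of the counts below. Estimated depth was 16900000 to 23900000 fragments per library. Tnfrsf1b, the gene removed in Tnfr2-/- mice, was 74.39, 108.17 and 70.77 FPKM in WT and 4.87, 3.71 and 3.19 FPKM in Tnfr2-/- libraries under TNF+TGF-β. The markers went against the CD4 label: Cd8a and Cd8b1 were both above Cd4 in 11 of 12 libraries, and B cell markers were present in every group. In bulk RNA, fewer cells of a type and less RNA per cell cannot be told apart.

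Levels across the list spanned 3 orders of magnitude, from Abca1 at 0.14 ± 0.044 FPKM in Th0 to Fdps, the farnesyl diphosphate synthase, at 213.2 ± 60.5 FPKM with IL-6+TGF-β (SD, n = 3). Fdps had the highest mean in all 4 groups: 169.8 FPKM in Th0, 213.2 with IL-6+TGF-β, 149.5 with TNF+TGF-β and 114.2 in Tnfr2-/- cells. The lowest mean belonged to the sterol exporter Abca1 in Th0 and IL-6+TGF-β, to Mylip in WT TNF+TGF-β and to the desaturase Fads2 in Tnfr2-/- cells. Individual libraries stood apart within their groups. Th0 replicate 2 held the highest of the 3 values for 29 of the 36 genes, whereas over 12411 genes with a mean of at least 1 FPKM it was highest for 38.6%. Among Tnfr2-/- libraries, replicate 1 was highest for 24 of 36 (44.7% of all genes) and the library numbered 4 was lowest for 24 of 36 (47.8% of all genes). IL-6+TGF-β replicate 1 was lowest for 20 of 36 (41.6% of all genes).

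**Figure D1:**
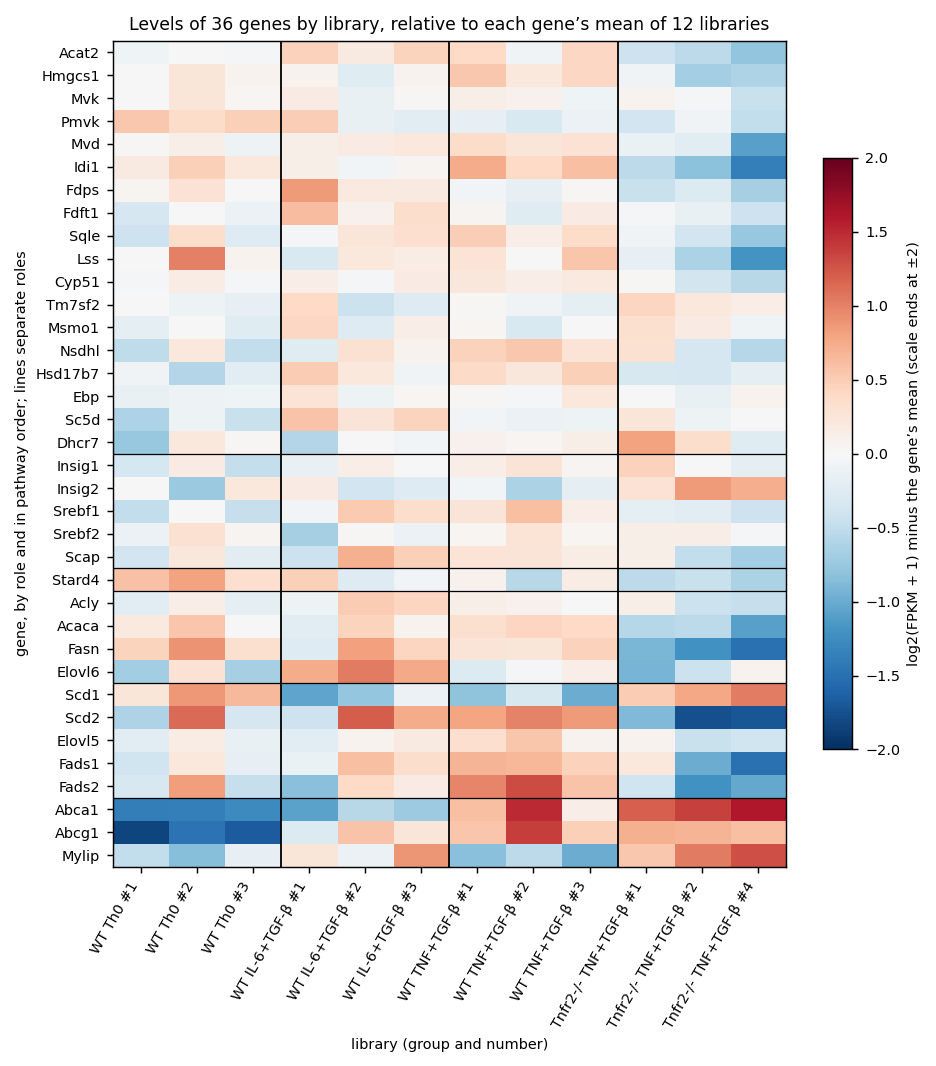
Level of each of the 36 genes in each of the 12 libraries, as log2(FPKM + 1) minus that gene's mean over all libraries; rows are genes by role and columns are libraries by group. Fasn, Scd2 and Idi1 are low (blue) in the 3 Tnfr2-/- libraries, Abca1 and Abcg1 are low in the 3 Th0 libraries, and Th0 replicate 2 is the highest library of its group for 29 of 36 genes.

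Without TNF receptor 2, enzymes of both pathways fell under TNF+TGF-β. Of the 36 genes, 15 were lower and 3 were higher in Tnfr2-/- than in WT cells, and 18 were not called. The background was high in this comparison: of all tested genes, 17.5% were lower and 19.9% were higher. The members' median log2 difference was −0.42, and that of all genes was 0.00. By role, 8 of 18 sterol synthesis enzymes, 2 of 4 fatty acid synthesis enzymes, 4 of 5 desaturases and elongases and 1 of 5 regulators were lower. Scd1, Insig2 and Mylip were the 3 that were higher. Scaling moved the split of all genes, from 2608 higher and 2290 lower to 2157 higher and 2897 lower with values rescaled to TPM, but among the 36 genes 16 were lower and 3 higher with TPM. The members' median was then −0.54, and that of all genes −0.10.

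Among the sterol enzymes the deepest fall was that of Idi1, in the early, mevalonate steps, and the next that of Lss, past squalene (−0.94). Idi1, the isopentenyl diphosphate isomerase (ENSMUSG00000058258.14, chromosome 13, 8885501 to 8892451 of GRCm38), was 116.14, 91.85 and 105.32 FPKM in WT and 48.03, 38.77 and 26.27 FPKM in Tnfr2-/- libraries. The highest Tnfr2-/- library was thus well below the lowest WT library, and the log2 difference was −1.48 (SE 0.19, adjusted p = 0.000105). Acat2, which joins acetyl-CoA units at the start of the pathway, went from 56.39, 40.38 and 56.98 FPKM to 31.62, 29.28 and 24.15 FPKM (−0.82, SE 0.15, adjusted p = 0.00158). A close copy, Acat3, shares sequence with Acat2, so the division of reads between them is uncertain. Hmgcs1, the HMG-CoA synthase (ENSMUSG00000093930.1, chromosome 13, 119690379 to 119708260), went from 83.76, 66.08 and 76.54 FPKM to 54.72, 35.27 and 36.93 FPKM (−0.84, SE 0.17, adjusted p = 0.00269). Mvd, the mevalonate diphosphate decarboxylase (ENSMUSG00000006517.4, chromosome 8, 122433601 to 122443422), went from 26.99, 24.77 and 25.70 FPKM to 18.85, 17.86 and 9.23 FPKM (−0.78, SE 0.21, adjusted p = 0.0128). In none of these 4 genes, which were picked as called, did a Tnfr2-/- library reach a WT library of the same treatment. The share of all genes set apart in this way was not counted, so this separation adds no support to the calls. Mvk and Pmvk, the kinases between Hmgcs1 and Mvd, differed by −0.18 and −0.12 and were not called (adjusted p = 0.419 and 0.637). Fdps differed by −0.39 and was not called (SE 0.18, adjusted p = 0.103), although its Tnfr2-/- libraries (114.43, 129.77 and 98.54 FPKM) lay below its WT libraries (149.74, 139.78 and 159.02 FPKM). It was called without IL-6+TGF-β replicate 1 (adjusted p = 0.0221).

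Past squalene the list divided. Squalene epoxidase Sqle differed by −0.74 (adjusted p = 0.0200), lanosterol synthase Lss by −0.94 (adjusted p = 0.0318), lanosterol demethylase Cyp51 by −0.49 (adjusted p = 0.0189) and the ketosteroid reductase Hsd17b7 by −0.64 (adjusted p = 0.0180). These 4 calls were the less secure ones. Without WT TNF+TGF-β replicate 1 the adjusted p was 0.0745 for Sqle, 0.0767 for Lss, 0.0635 for Cyp51 and 0.0559 for Hsd17b7. Leaving out WT replicate 3 or Tnfr2-/- replicate 2 also ended all 4 calls, at adjusted p of 0.0510 to 0.111, and leaving out the Tnfr2-/- library numbered 4 ended 3 of them (Sqle 0.0835, Lss 0.127, Cyp51 0.0731). The later enzymes Msmo1, Ebp, Sc5d, Dhcr7 and Tm7sf2 were not called, with log2 differences of 0.23, −0.10, 0.13, 0.23 and 0.34. Nsdhl, a decarboxylating dehydrogenase, was 20.68, 21.90 and 18.20 FPKM in WT and 18.46, 11.49 and 9.69 FPKM in Tnfr2-/- libraries and missed the threshold (−0.63, adjusted p = 0.0696). Without Tnfr2-/- replicate 1 its adjusted p was 0.0132. Squalene synthase Fdft1 shares 774 exon bases with Ctsb, and Cyp51 shares 166 with Akap9. Both neighbours are on the other strand, and the library kit does not mark the strand. Tm7sf2 shares 532 exon bases with Vps51 on the same strand. Because Ctsb, Akap9 and Vps51 reached 127.03, 71.56 and 62.62 FPKM, the values of Fdft1, Cyp51 and Tm7sf2 are uncertain.

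The upstream sequence of these genes was read from RefSeq promoters (GRCm38.p6), in which 28 of the 36 genes were found. The 250 bases before each start were searched on both strands for the sterol regulatory element core TCACNCCAC, the NF-Y box CCAAT and the E-box CACGTG, to see what the list shares that its choice did not use. CCAAT stood upstream of 21 of 28 genes (75%), against 37.5% of 27025 genes with a promoter and 41% of the 9197 of those that were tested here. CACGTG stood upstream of 7 of 28 (25%), against 6.86% of all genes and 9.94% of tested ones. The sterol element core was found upstream of Hmgcs1 alone, 1 of 28, against 1.22% of all genes. It read TCACCCCAC there, with its first base 137 bases before the start. The presence of CCAAT did not separate the genes by their response: 9 of 12 matched genes that were lower in Tnfr2-/- cells held it, as did both matched genes that were higher and 10 of 14 that were not called. Among the genes called lower, Acaca and Srebf1 also have windows that no annotated exon of GENCODE M21 overlaps. The Acaca window holds no CCAAT, those of Srebf1 hold at most 1, and neither gene's are shown. Printed as examples are windows of 3 genes that fell and 2 that rose. No annotated exon overlaps these windows, and each holds CCAAT more than once. Capitals mark CCAAT or its reverse complement ATTGG, and each is read 5′ to 3′ on the strand of its gene, for Hmgcs1 (chr13:119690101-119690350, plus strand), Fasn (chr11:120824548-120824797, minus), Mvd (chr8:122443423-122443672, minus), Insig2 (chr1:121332590-121332839, minus) and Mylip (chr13:45389492-45389741, plus).
Hmgcs1: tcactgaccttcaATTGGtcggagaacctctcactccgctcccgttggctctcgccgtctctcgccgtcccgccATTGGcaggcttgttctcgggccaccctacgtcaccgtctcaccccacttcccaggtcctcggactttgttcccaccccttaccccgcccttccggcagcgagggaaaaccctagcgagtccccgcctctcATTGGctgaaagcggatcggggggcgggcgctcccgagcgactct
Fasn: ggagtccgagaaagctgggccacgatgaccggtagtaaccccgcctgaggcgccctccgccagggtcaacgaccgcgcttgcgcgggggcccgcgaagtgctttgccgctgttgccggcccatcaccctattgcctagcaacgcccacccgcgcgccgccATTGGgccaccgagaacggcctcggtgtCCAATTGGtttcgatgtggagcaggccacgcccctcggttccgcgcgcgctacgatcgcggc
Mvd: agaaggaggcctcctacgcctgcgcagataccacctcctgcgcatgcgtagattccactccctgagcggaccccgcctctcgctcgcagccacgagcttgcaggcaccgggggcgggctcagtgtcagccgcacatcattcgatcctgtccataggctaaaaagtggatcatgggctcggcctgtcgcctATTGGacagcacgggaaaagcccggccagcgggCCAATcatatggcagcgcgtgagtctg
Insig2: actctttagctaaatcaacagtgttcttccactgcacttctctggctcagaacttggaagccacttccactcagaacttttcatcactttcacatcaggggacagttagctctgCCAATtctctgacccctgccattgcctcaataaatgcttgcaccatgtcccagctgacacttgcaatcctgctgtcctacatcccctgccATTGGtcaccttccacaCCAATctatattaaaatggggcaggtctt
Mylip: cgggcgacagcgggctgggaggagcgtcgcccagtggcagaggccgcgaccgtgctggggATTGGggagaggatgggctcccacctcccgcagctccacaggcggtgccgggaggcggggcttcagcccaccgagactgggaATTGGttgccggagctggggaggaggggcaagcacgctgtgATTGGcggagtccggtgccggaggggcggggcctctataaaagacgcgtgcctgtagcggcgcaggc
In the Fasn window the last run of capitals holds the box on both strands, overlapping. Such matches describe the letters only and do not show that a factor bound there.

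Fatty acid synthesis fell at its committed steps. Fasn, the fatty acid synthase (ENSMUSG00000025153.9, chromosome 11, 120805846 to 120824547), was 50.05, 49.59 and 57.81 FPKM in WT and 21.63, 17.49 and 14.28 FPKM in Tnfr2-/- libraries under TNF+TGF-β. Its mean was 2.95 times higher in WT, with a log2 difference of −1.52 (SE 0.25, adjusted p = 0.000654). Acaca, the acetyl-CoA carboxylase that supplies Fasn (ENSMUSG00000020532.18, chromosome 11, 84129672 to 84401651), went from 6.30, 6.88 and 6.68 FPKM to 2.95, 3.07 and 1.75 FPKM (−1.11, SE 0.22, adjusted p = 0.00221). Both genes were also below every Th0 and IL-6+TGF-β library. Acly, which makes the cytosolic acetyl-CoA for both pathways, was 100.97, 98.66 and 92.52 FPKM in WT and 100.14, 68.47 and 66.76 FPKM in Tnfr2-/- libraries. The groups overlapped and Acly was not called (−0.33, adjusted p = 0.188). Without Tnfr2-/- replicate 1 it was called (−0.52, adjusted p = 0.0394). The elongase Elovl6 was low in both groups and was not called (−0.37, adjusted p = 0.347).

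Scd2 and Fads2 had the deepest falls of the 36 genes, and the 2 stearoyl-CoA desaturases moved in opposite directions. Both put a double bond into saturated fatty acids, and their genes are neighbours on chromosome 19 of GRCm38, Scd2 at 44293674 to 44306864 and Scd1 at 44394455 to 44407879, with 87.6 kb between them. Scd2 (ENSMUSG00000025203.5) was 29.92, 34.47 and 31.21 FPKM in WT and 8.76, 4.27 and 4.46 FPKM in Tnfr2-/- libraries, a mean 5.47 times higher in WT (log2 difference −2.32, SE 0.47, adjusted p = 0.00244). Scd1 (ENSMUSG00000037071.2) was 3.48, 5.29 and 2.92 FPKM in WT and 10.13, 12.37 and 14.90 FPKM in Tnfr2-/- libraries, a mean 3.2 times higher in Tnfr2-/- cells (1.47, SE 0.27, adjusted p = 0.00138). In WT cells with TNF+TGF-β Scd2 was thus the more abundant of the pair, and in Tnfr2-/- cells Scd1 was. The pair share coding sequence, so some reads may have been divided between them. Neither gene's groups overlapped, but this cannot show how reads were divided, which was not tested. Fads2 and Fads1, which desaturate polyunsaturated fatty acids, are also neighbours on chromosome 19, with 81.1 kb between them, and both fell. Fads2 went from 4.33, 5.74 and 3.02 FPKM to 1.06, 0.17 and 0.34 FPKM (−1.83, SE 0.40, adjusted p = 0.00419), where the lowest value rests on about 4 fragments. Fads1 went from 18.53, 18.33 and 15.73 FPKM to 13.04, 5.14 and 3.34 FPKM (−1.36, SE 0.35, adjusted p = 0.0108). Elovl5, which lengthens their products, was lower by a smaller margin (77.34 to 51.70 FPKM, −0.58, adjusted p = 0.0261). That call was lost without WT TNF+TGF-β replicate 1 (adjusted p = 0.0711) or 2 (0.0973), and without Tnfr2-/- replicate 2 (0.0981) or the library numbered 4 (0.0872).

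**Figure D2:**
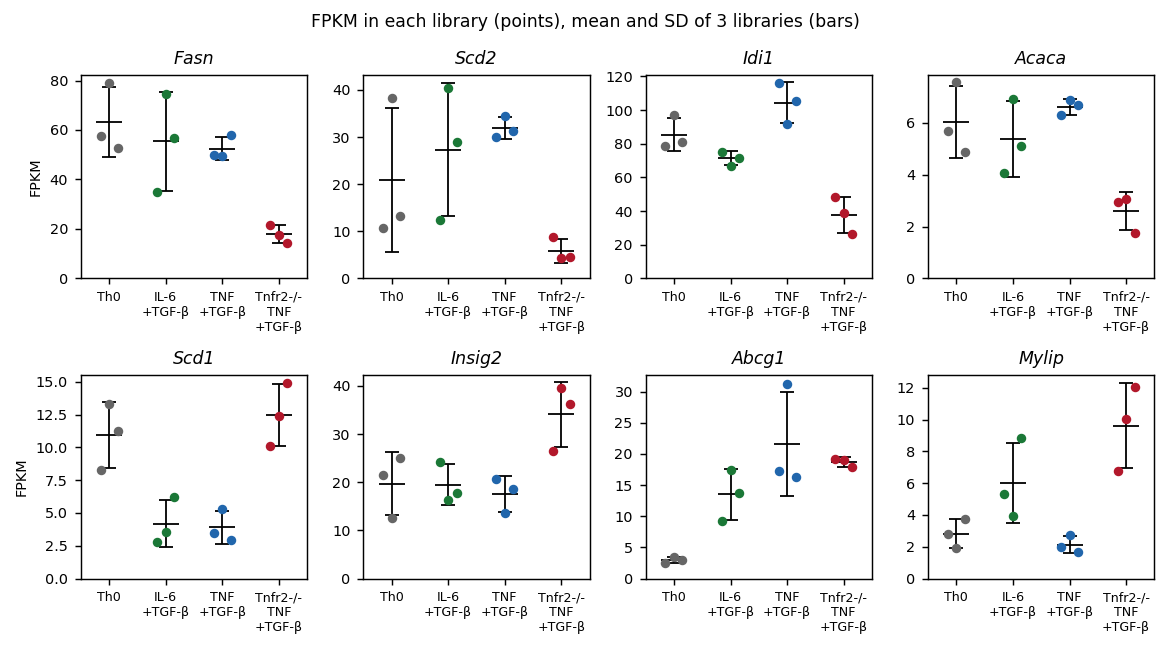
FPKM of 8 genes in each library (points), with mean and SD of 3 libraries (bars), for the 4 groups; each vertical axis is linear and starts at 0. The 3 Tnfr2-/- libraries lie between 14.28 and 21.63 FPKM for Fasn and between 4.27 and 8.76 FPKM for Scd2, below all WT libraries, and Abcg1 is lowest in Th0, at 2.49 to 3.47 FPKM.

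Some of these genes were also low against WT cells of the other treatments. For 7 of the 36 genes (Acat2, Mvd, Idi1, Fdps, Acaca, Fasn and Scd2) the 3 Tnfr2-/- libraries lay below every WT library of any treatment, which held for 8.13% of all tested genes. For Insig2 alone they lay above every WT library, which held for 14.4% of all tested genes. Scd1 and Mylip, by contrast, had WT libraries of other treatments within their Tnfr2-/- range. Scd1 was 8.26, 13.29 and 11.24 FPKM in Th0, and Mylip reached 8.84 FPKM with IL-6+TGF-β.

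The regulators did not move as a group. Srebf2, the factor that chiefly drives sterol genes, was 88.06, 103.77 and 88.50 FPKM in WT and 93.73, 94.00 and 83.59 FPKM in Tnfr2-/- libraries, and the ranges overlapped (−0.04, SE 0.17, adjusted p = 0.863). Insig1, a classical SREBP target as well as a brake on the pathway, was 31.54, 34.49 and 29.70 FPKM and 39.87, 28.66 and 25.09 FPKM (−0.05, SE 0.19, adjusted p = 0.848). Srebf1, the factor that chiefly drives fatty acid genes, was 59.05, 74.84 and 53.84 FPKM in WT and 42.99, 41.69 and 36.42 FPKM in Tnfr2-/- libraries (−0.61, SE 0.18, adjusted p = 0.0224). Srebf1 lost its call without WT TNF+TGF-β replicate 2 (adjusted p = 0.0883) and without the Tnfr2-/- library numbered 4 (0.0762). It also shares 109 exon bases with Rai1 on the other strand. Scap, the escort of both factors, was 46.56, 46.19 and 42.87 FPKM in WT and 41.76, 27.10 and 23.60 FPKM in Tnfr2-/- libraries and was not called (−0.58, SE 0.28, adjusted p = 0.131), although the ranges did not overlap. Scap was called without Tnfr2-/- replicate 1 (−0.81, adjusted p = 0.0455) and without IL-6+TGF-β replicate 1 (−0.58, adjusted p = 0.0439), which enters this comparison through the shared spread. Insig2, the second brake, rose from 20.77, 13.54 and 18.57 FPKM to 26.55, 39.58 and 36.24 FPKM (0.92, SE 0.26, adjusted p = 0.0163). That rise missed the threshold without WT TNF+TGF-β replicate 2 (0.0649), Tnfr2-/- replicate 2 (0.0646) or the library numbered 4 (0.0528). Stard4, which carries sterol between membranes, differed by −0.44 and was not called (adjusted p = 0.152).

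Among the export and LXR genes, the genotype comparison called Mylip alone with all libraries in the fit. Mylip encodes the ubiquitin ligase IDOL, which removes lipoprotein receptors from the cell surface. It rose from 1.98, 2.72 and 1.68 FPKM in WT to 6.78, 10.03 and 12.05 FPKM in Tnfr2-/- libraries, a mean 4.52 times higher (1.75, SE 0.29, adjusted p = 0.000632). Abca1, which loads cholesterol onto lipid-poor apolipoprotein, was 3.36, 7.17 and 2.18 FPKM in WT and 5.58, 6.43 and 7.72 FPKM in Tnfr2-/- libraries, with overlapping ranges (0.64, SE 0.29, adjusted p = 0.106). Without WT TNF+TGF-β replicate 2, the 7.17 FPKM library, Abca1 was called (1.02, adjusted p = 0.00654). Abcg1, which exports cholesterol to mature lipoprotein, was 17.29, 31.24 and 16.27 FPKM and 19.24, 18.97 and 17.82 FPKM, also overlapping (−0.14, SE 0.25, adjusted p = 0.696). For both exporters all 3 Tnfr2-/- libraries lay above every WT Th0 library. That contrast, in which genotype and cytokines both differ, was not tested, and the share of all genes so placed was not counted.

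Other things differed between the same 2 groups. The 10 proliferation genes all fell in Tnfr2-/- cells (median log2 difference −1.79), and their summed level was 1542 to 2041 FPKM in WT and 446.3 to 875.5 FPKM in Tnfr2-/- libraries. All 8 B cell markers rose, from a sum of 263.5 to 339.9 FPKM to one of 1960 to 4307 FPKM. Of 9 myeloid markers 6 rose (sums 99.78 to 193.4 and 237 to 1532 FPKM), and all 4 tested CD8 and NK markers and both CD4 markers fell. T cell markers were closer, with 1 of 5 lower and sums of 2372 to 2545 and 1793 to 2676 FPKM. Among the Tnfr2-/- libraries the sterol synthesis sum was 775.6, 684.2 and 582.4 FPKM for replicates 1 and 2 and the library numbered 4. In the same order the proliferation sum was 875.5, 603.1 and 446.3 FPKM and the B cell sum 1960, 3514 and 4307 FPKM. The part of cell composition and of proliferation in the results for the 36 genes was not tested.

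**Figure D3:**
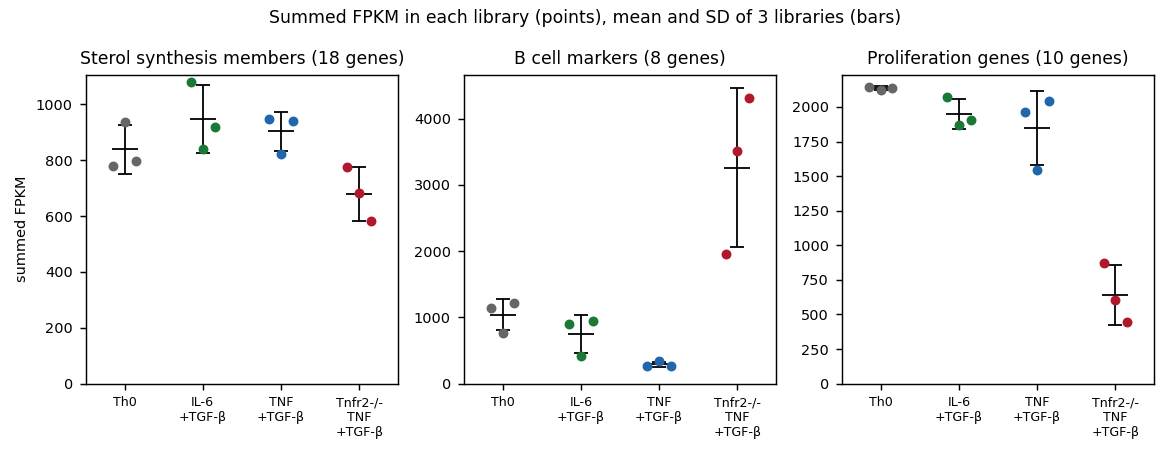
Summed FPKM per library (points) with mean and SD of 3 libraries (bars) for the 18 sterol synthesis genes, 8 B cell markers and 10 proliferation genes in the 4 groups; vertical axes are linear and start at 0. The Tnfr2-/- libraries have the lowest sterol sums, 582.4 to 775.6 FPKM, together with the highest B cell sums and the lowest proliferation sums.

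In WT cells the cytokine pairs changed few of the 36 genes, and the clearest changes were in export. The comparison of each pair with Th0 asked how cultures with cytokines differed from cultures activated without them. Both comparisons share the Th0 libraries, and the WT TNF+TGF-β libraries also serve the genotype comparison, so their values are set side by side and not counted as independent. With TNF+TGF-β, 4 of 36 genes were higher and 3 lower than in Th0, where 18.7% and 13% of all genes were. With IL-6+TGF-β, 5 were higher and 1 lower, where 14.1% and 9.15% of all genes were. The direct contrast of the cytokine pairs, TNF+TGF-β less IL-6+TGF-β, gave 1 higher and 2 lower, where 7.31% and 5.50% of all genes were. Medians of the 36 genes were 0.27, 0.20 and 0.08 in these 3 comparisons, beside 0.07, 0.04 and 0.00 for all genes. For all genes the TNF+TGF-β split of 2442 higher and 1703 lower became 3317 and 1253 with TPM and 2087 and 2257 with median-ratio scaling. Cell type markers also differed between the WT groups. With TNF+TGF-β all 8 B cell markers were lower than in Th0, and 3 of 4 tested CD8 and NK markers were higher. With IL-6+TGF-β 2 of 8 B cell and 3 of 9 myeloid markers were lower, and 2 of 4 CD8 and NK markers were higher. TNF+TGF-β was below IL-6+TGF-β for 5 of the 8 B cell markers. The part of cell composition in the WT results was not tested.

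Abcg1 rose with both pairs. It was 2.49, 3.47 and 2.92 FPKM in Th0, 9.28, 17.48 and 13.71 FPKM with IL-6+TGF-β and 17.29, 31.24 and 16.27 FPKM with TNF+TGF-β. Every cytokine library was above every Th0 library, and the log2 differences from Th0 were 1.84 with IL-6+TGF-β (SE 0.25, adjusted p = 0.000230) and 2.46 with TNF+TGF-β (SE 0.25, adjusted p = 2.19e-05). Abca1 was 0.11, 0.12 and 0.19 FPKM in Th0, about 12 fragments in the lowest library. It was 0.37, 0.97 and 0.75 FPKM with IL-6+TGF-β and 3.36, 7.17 and 2.18 FPKM with TNF+TGF-β. The 3 groups did not overlap, but only the rise with TNF+TGF-β was called (2.09, SE 0.29, adjusted p = 0.000235, against 0.56 and adjusted p = 0.2 with IL-6+TGF-β). With 0.1 in place of 1 added to the FPKM, the rise with IL-6+TGF-β was 1.67 and was called (adjusted p = 0.0165). The difference between the pairs was itself called for Abca1 (1.53, SE 0.29, adjusted p = 0.00379) and not for Abcg1 (0.62, SE 0.25, adjusted p = 0.147). Mylip was 2.80, 1.95 and 3.74 FPKM in Th0 and 5.29, 3.91 and 8.84 FPKM with IL-6+TGF-β, not called against Th0 (0.84, SE 0.29, adjusted p = 0.0526). TNF+TGF-β libraries were lower than those of IL-6+TGF-β for Mylip (−1.12, SE 0.29, adjusted p = 0.0214), a call that was lost without IL-6+TGF-β replicate 3 or TNF+TGF-β replicate 1 or 3 (adjusted p of up to 0.0887). Abca1, Abcg1 and Mylip therefore did not share 1 pattern across the groups.

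Scd1 fell with both pairs. From 8.26, 13.29 and 11.24 FPKM in Th0 it went to 2.76, 3.58 and 6.21 FPKM with IL-6+TGF-β (−1.24, SE 0.27, adjusted p = 0.00592) and to 3.48, 5.29 and 2.92 FPKM with TNF+TGF-β (−1.29, SE 0.27, adjusted p = 0.00370). No cytokine library reached a Th0 library, and the Tnfr2-/- libraries (10.13 to 14.90 FPKM) overlapped Th0. Scd2 was 10.72, 38.39 and 13.26 FPKM in Th0, where replicate 2 stood far above the others, and was not called with TNF+TGF-β (0.81, SE 0.47, adjusted p = 0.208). Without Th0 replicate 2 its difference was 1.34 and was called (adjusted p = 0.0306). That library changed the count for TNF+TGF-β most: without it 9 genes were higher in place of 4, with Sqle, Nsdhl, Sc5d, Insig1, Scd2 and Fads2 added and Hsd17b7 lost.

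The remaining calls against Th0 were smaller. Srebf1 rose with TNF+TGF-β from 34.40, 48.77 and 35.47 FPKM to 59.05, 74.84 and 53.84 FPKM (0.65, SE 0.18, adjusted p = 0.0188), and under IL-6+TGF-β to 47.19, 70.57 and 62.56 FPKM, overlapping Th0 (0.59, SE 0.18, adjusted p = 0.0375, and up to 0.142 with 1 library left out). The rise with TNF+TGF-β missed the threshold without Th0 replicate 1 or 3 or TNF+TGF-β replicate 2, with an adjusted p of up to 0.0873. Sc5d, the lathosterol oxidase near the end of sterol synthesis, rose with IL-6+TGF-β from 38.97, 56.17 and 43.92 FPKM to 90.00, 71.70 and 82.02 FPKM (0.81, SE 0.15, adjusted p = 0.00177). TNF+TGF-β left it lower than IL-6+TGF-β did (−0.51, adjusted p = 0.0413, and up to 0.122 with 1 library left out). Elovl6, which lengthens palmitate, rose with IL-6+TGF-β from 1.81, 4.55 and 1.87 FPKM to 6.61, 8.35 and 6.71 FPKM, without overlap (1.21, SE 0.30, adjusted p = 0.0112). Without Th0 replicate 1 or 3 the adjusted p of Elovl6 reached 0.0527. Pmvk, the phosphomevalonate kinase, fell with TNF+TGF-β from a mean of 60.35 to 38.05 FPKM (−0.65, SE 0.18, adjusted p = 0.0165). Stard4 also fell (26.11 to 16.16 FPKM, −0.68, SE 0.23, adjusted p = 0.0390), and Hsd17b7 rose (5.98 to 9.893 FPKM, 0.65, SE 0.18, adjusted p = 0.0185). These 3 calls were lost without 1 library: for Pmvk Th0 replicate 1 or 3 or TNF+TGF-β replicate 2 (adjusted p of up to 0.0641), for Hsd17b7 Th0 replicate 2 or TNF+TGF-β replicate 1 or 3 (up to 0.0692), and for Stard4 any of 5 libraries (up to 0.166). Fdft1 rose with IL-6+TGF-β by a margin that 13 of 21 alternatives removed (0.51, adjusted p = 0.0482). The regulators Srebf2, Scap, Insig1 and Insig2 were called in none of the 3 WT comparisons, with log2 differences between −0.33 and 0.39. Insig1 was called with TNF+TGF-β without Th0 replicate 2 (0.56 in place of 0.37, adjusted p = 0.0449). Leaving out IL-6+TGF-β replicate 1 added 4 calls of IL-6+TGF-β against Th0 and ended that of Fdft1. It also added Nsdhl to the genes higher with TNF+TGF-β (0.68, adjusted p = 0.0479). Scap was then higher with IL-6+TGF-β (0.73 in place of 0.39, adjusted p = 0.0374), as was Acly (0.56, adjusted p = 0.0335), and Pmvk (−0.63, adjusted p = 0.00561) and Stard4 (−0.73, adjusted p = 0.0281) were lower.

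**Figure D4:**
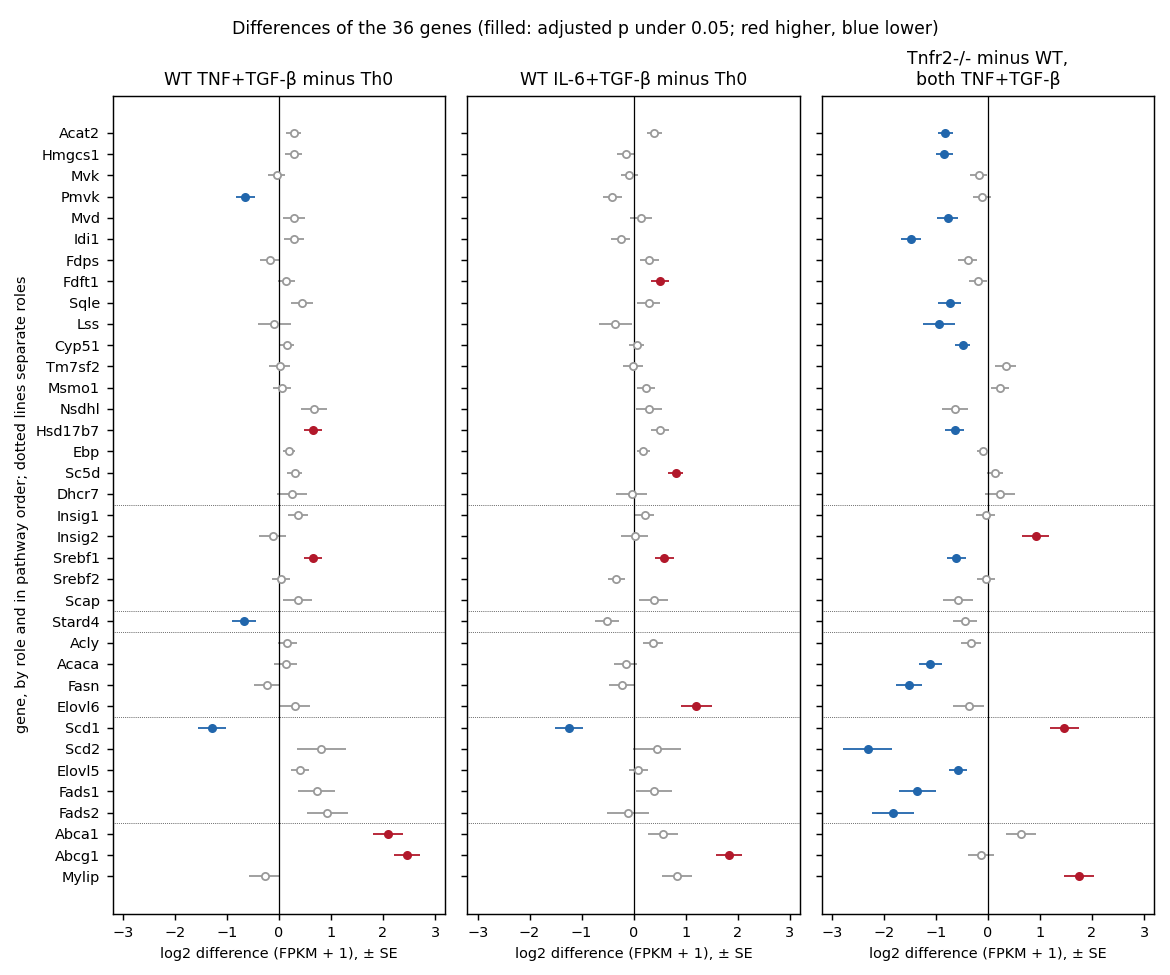
Log2 difference of each of the 36 genes (points, with SE as bars) in 3 comparisons; filled red and blue points are higher and lower at an adjusted p under 0.05, open points are not called. The TNF+TGF-β and IL-6+TGF-β panels hold 7 and 6 filled points, and the Tnfr2-/- panel holds 18, of which 15 are on the lower side.

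Across all 4 comparisons, 11 of the 36 genes were called in none: Acly, Dhcr7, Ebp, Fdps, Insig1, Msmo1, Mvk, Nsdhl, Scap, Srebf2 and Tm7sf2. Another 18 were called in 1 comparison and 5 in 2. Scd1 and Srebf1 were each called in 3. Single comparisons called 1675 to 4898 of the 13082 tested genes. How many of all tested genes fell in each of these classes was not counted, so the numbers only describe the 36 genes.

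Some genes around the pathway changed by more than any of the 36. Of 19 other tested genes of fatty acid synthesis, activation and storage, Dgat2, which makes triacylglycerol, rose with TNF+TGF-β from 2.78, 3.83 and 2.81 FPKM in Th0 to 75.41, 109.36 and 59.47 FPKM (4.28, SE 0.36, adjusted p = 3.80e-06). In Tnfr2-/- libraries it was 5.39, 1.98 and 0.93 FPKM (−4.59, SE 0.36, adjusted p = 5.49e-06). That list held 5 higher and 3 lower genes with TNF+TGF-β against Th0, against 2 and 1 for IL-6+TGF-β, and 2 and 5 in Tnfr2-/- against WT. Of all genes, 18.7% were higher and 13% lower in the first of these comparisons, 14.1% and 9.15% in the second and 19.9% and 17.5% in the third, so the counts with IL-6+TGF-β lay below the background. Gpam, which starts glycerolipid synthesis, also fell in Tnfr2-/- cells (3.320 to 0.9800 FPKM, −1.22, adjusted p = 0.0169), and Hacd1 fell with TNF+TGF-β (15.19 to 2.900 FPKM, −2.06, adjusted p = 0.000333). Of 15 tested SREBP and LXR regulators outside the 36, 3 were higher with TNF+TGF-β, 1 was higher with IL-6+TGF-β, and 2 were higher and 2 lower in Tnfr2-/- cells, counts near or below those background shares. Rxra, a partner of LXR on DNA, was 1.78, 2.14 and 2.21 FPKM in Th0, 1.17, 2.34 and 2.77 FPKM with IL-6+TGF-β and 32.47, 32.48 and 28.46 FPKM with TNF+TGF-β (3.40, SE 0.27, adjusted p = 2.95e-06). It was 8.17, 4.40 and 3.23 FPKM in Tnfr2-/- libraries (−2.43, SE 0.27, adjusted p = 4.81e-05). Rxrb, of the same list, was called in no comparison. Its log2 differences were 0.07 with TNF+TGF-β and 0.04 with IL-6+TGF-β against Th0, 0.03 between the pairs and 0.04 in Tnfr2-/- against WT. Nr1h3, which encodes LXRα, went from 0.3400 to 2.207 FPKM in Tnfr2-/- cells (1.22, adjusted p = 0.00420). It is expressed in macrophages, whose markers also rose there, and the part of those cells was not tested.

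Of 16 other tested genes of sterol handling and isoprenoid synthesis, 3 were higher and 2 lower under TNF+TGF-β, where 18.7% and 13% of all genes were, 3 higher and 1 lower under IL-6+TGF-β, and 3 higher and 3 lower in Tnfr2-/- cells. As a list these genes thus lay close to the background, and single genes stood out. Soat1, which esterifies cholesterol for storage, rose from 20.35, 19.43 and 20.23 FPKM in Th0 under both pairs, to 57.61, 51.69 and 61.85 FPKM for IL-6+TGF-β (log2 difference 1.46, adjusted p = 1.72e-06) and to 80.43, 79.35 and 68.36 FPKM for TNF+TGF-β (1.87, adjusted p = 2.47e-07). In Tnfr2-/- libraries Soat1 stayed at 68.82, 68.62 and 73.78 FPKM. Npc1, which releases cholesterol from lysosomes, rose with TNF+TGF-β (4.523 to 13.04 FPKM, 1.35, adjusted p = 0.000839) and with IL-6+TGF-β (to 9.757 FPKM, 0.94, adjusted p = 0.0101), and the difference between the pairs was not called (0.41, adjusted p = 0.287). Gramd1b, a carrier of cholesterol from the plasma membrane, was 40.45, 49.81 and 42.97 FPKM in Th0 and 35.38, 30.66 and 29.42 FPKM with TNF+TGF-β. With IL-6+TGF-β it fell to 9.95, 12.98 and 11.54 FPKM (−1.86, adjusted p = 7.76e-06) and was 10.93, 8.97 and 6.90 FPKM in Tnfr2-/- libraries (−1.74, adjusted p = 1.89e-05 against WT TNF+TGF-β). Of 7 tested further LXR targets, 3 were higher and 1 lower under TNF+TGF-β, 3 higher and 2 lower under IL-6+TGF-β, and 4 higher in Tnfr2-/- cells, where 18.7% and 13%, 14.1% and 9.15%, and 19.9% of all genes were. Nr1h3 stands in this list and in that of the regulators, so its rise in Tnfr2-/- cells is counted in both. Apoe, an apolipoprotein that carries lipid out of cells and is abundant in macrophages, was 78.82, 24.32 and 139.76 FPKM in Th0, 911.08, 426.46 and 883.9 FPKM under IL-6+TGF-β and 189.52, 241.62 and 178.47 FPKM under TNF+TGF-β. It was thus higher with both pairs than in Th0, by log2 differences of 3.41 (adjusted p = 0.000427) and 1.62 (adjusted p = 0.0308). In Tnfr2-/- libraries Apoe was 2851.48, 4884.73 and 5251.91 FPKM (4.37, adjusted p = 6.32e-05 against WT). In the same library order the myeloid marker sum was 1532, 1106 and 237 FPKM and the B cell marker sum 1960, 3514 and 4307 FPKM. Against WT, 6 of 9 myeloid and all 8 B cell markers were higher there, and the part of either cell type in the Apoe level was not tested. Pltp, a phospholipid transfer protein, rose with IL-6+TGF-β from 1.82, 2.15 and 2.57 to 41.63, 54.01 and 53.20 FPKM (3.99, adjusted p = 8.22e-08) and fell with TNF+TGF-β to 0.17, 0.26 and 0.79 FPKM (−1.20, adjusted p = 0.000946).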

How the data were processed

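The submitters' processing notes name the genome build mm10 and the tools RSEM 1.3.1, STAR 2.5.4 and Trimmomatic, the last without a version. The deposited table held 1 RSEM value per gene and library, without pooling. The file headers do not name the quantity, so the authors' values were read as FPKM: their sums differed between libraries (689045 to 828161), and FPKM times transcript length in kilobases summed to 900467 to 1010096. No counts were used, so limma took the place of a count model, and depth is unknown except as estimated: steps between low values of 8697 single-transcript genes (800 to 3000 bases, less 300) gave 16900000 to 23900000 fragments, with 80.1% to 90.4% of values within 0.2 of a whole multiple. That method was chosen after seeing the data, and 3 fragments on 1 kb would be 0.126 to 0.178 FPKM, for counting error only.

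limma 3.58.1 in R 4.3.3 was fitted to log2(FPKM + 1) of 13082 genes that reached 1 FPKM in 3 libraries or more, with 1 mean per group over all 12 libraries, a variance prior following the mean level, and Benjamini-Hochberg adjustment over all tested genes within each comparison. The script was tested on simulated data. Coordinates came from GENCODE M21 (GRCm38), which held 47224 of the identifiers (99.1%). One Tnfr2-/- column carries the number 4, while titles run from 1 to 3, so it is used as a member of its group only.

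The 36 genes, the other lists and the tests were chosen with earlier results of these data known. Of the other lists, the text names at most the 2 called genes with the largest difference in each comparison, and Rxrb beside Rxra. Full statistics are given for the called genes with the largest differences, the regulators and the export genes. Alternatives were other pseudocounts, filters, scalings, samples in the fit, variance priors, a replicate block and each library left out. Some genes are not reported here.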

Additional observations from a re-analysis of the deposited data

How the results depend on the processing

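No result turned its direction while called, under any of the alternatives run. In the genotype comparison 10 of 18 calls among the 36 genes held under every alternative: Acat2, Hmgcs1, Mvd, Idi1, Acaca, Fasn, Scd1, Scd2, Fads2 (not tested at a minimum of 5 FPKM) and Mylip. The same was so for 3 of 7 calls with TNF+TGF-β against Th0 (Scd1, Abca1, Abcg1), 3 of 6 with IL-6+TGF-β (Sc5d, Scd1, Abcg1) and 1 of 3 between the cytokine pairs (Abca1). With 1 library left out, genes of the 36 that were lower in Tnfr2-/- cells numbered 10 to 18. The count was 18 without Tnfr2-/- replicate 1, and 10 without WT TNF+TGF-β replicate 1, Tnfr2-/- replicate 2 or the library numbered 4. Against Th0, TNF+TGF-β then gave 3 to 9 higher (9 without Th0 replicate 2) and 1 to 3 lower, and IL-6+TGF-β gave 2 to 6 higher and 1 to 3 lower. Between the pairs there were 1 to 2 higher and 0 to 3 lower. Over all genes the ranges were 1074 to 2064 lower with TNF+TGF-β, 756 to 1630 lower with IL-6+TGF-β, 575 to 1079 higher and 469 to 836 lower between the pairs, and 1480 to 2714 lower in Tnfr2-/- cells. Of the 36 genes, those higher with IL-6+TGF-β numbered 3 without a filter, with median-ratio scaling or with only the 2 groups fitted, and 8 with TPM. With TNF+TGF-β 8 were higher with TPM. Between the pairs 0 were lower without a filter, 1 with TPM and 1 with a constant variance prior, and 2 were higher with only the 2 groups fitted. The causes were not tested. Depth limits the lowest values: Fads2 rests on about 4 fragments in its lowest library.

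The replicate numbers share no stated origin, and correlations of same-numbered deviations ran from −0.284 to 0.344 over all tested genes and from −0.508 to 0.711 over the 36, so the numbers were not taken as pairs. With a replicate block, the genotype comparison gave 10 lower and 2 higher of the 36 genes and 1353 lower of all genes, and 2 of the 36 were higher between the cytokine pairs. The block ended the genotype calls of Fads1 (−1.01, adjusted p = 0.0848), Sqle (0.142), Lss (0.199), Cyp51 (0.110), Insig2 (0.0527) and Elovl5 (0.122), and the calls of Stard4 with TNF+TGF-β (0.0553), Fdft1 with IL-6+TGF-β (0.0529) and Sc5d between the pairs (0.0832).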

Other observations

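Genes of fatty acid oxidation, the opposing pathway in mitochondria, were not part of the list. Against Th0, 6 of 19 tested genes rose and 1 fell under TNF+TGF-β, while 4 rose and 2 fell under IL-6+TGF-β. In Tnfr2-/- cells 3 of the 19 fell. Pparg, a nuclear receptor and not an enzyme of oxidation, is counted in the 6 and in the 3. Of all tested genes, 18.7% rose and 13% fell under TNF+TGF-β, 14.1% rose and 9.15% fell under IL-6+TGF-β, and 17.5% fell in Tnfr2-/- cells. Pparg, which encodes a nuclear receptor for fatty acids, was 0.13, 0.31 and 0.09 FPKM in Th0, 0.26, 0.14 and 0.35 FPKM with IL-6+TGF-β and 7.97, 6.62 and 5.64 FPKM with TNF+TGF-β (log2 difference from Th0 2.71, adjusted p = 2.99e-06). In Tnfr2-/- libraries Pparg was 0.78, 0.41 and 0.0 FPKM (−2.50, adjusted p = 1.08e-05). Cpt1a, which admits fatty acids to mitochondria, rose with TNF+TGF-β from 11.25, 10.52 and 11.10 FPKM to 34.22, 41.07 and 25.29 FPKM (1.5, adjusted p = 0.00362) and was 44.94, 28.95 and 21.06 FPKM in Tnfr2-/- libraries. Etfb, a subunit of the electron carrier of this pathway, fell in Tnfr2-/- cells (253.4 to 128.1 FPKM, −1.01, adjusted p = 0.00169). Decr1, which prepares unsaturated fatty acids for oxidation, fell with IL-6+TGF-β (18.53 to 7.267 FPKM, −1.25, adjusted p = 0.000313). All p-values are from limma over 3 libraries a group.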
